A study of Mus musculus with 2 samples.

Results

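The contractile cytoskeleton of a smooth muscle cell is more than its classical markers *Acta2*, *Tagln* and *Myh11*, and 34 further genes of it, of 31053 genes in the data, were followed here. They are a list of names that includes smooth and skeletal muscle actin isoforms, proteins that regulate the thin filament, myosin light chains with their kinases and phosphatase subunits, proteins of dense bodies and Z-discs, cross-linking and adhesion proteins, and small heat shock proteins. Primary VSMCs were isolated from the thoracic aorta of wildtype mice, male and female animals of a C57BL6/N background, and kept in full medium for 5 days. They were measured by scRNA-seq in 2 cultures, replicates 1 and 2. A preparation pooled about 3 aortae, there was only 1 condition, and no fresh tissue or other time point is part of the comparison. The 10x Genomics 3' method counts mRNA molecules near their 3' end by cell barcode and molecular identifier (UMI), which does not separate the splice forms of a gene.

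In smooth muscle, calcium and calmodulin activate myosin light chain kinase, which phosphorylates the regulatory light chain so that myosin pulls on actin filaments. Tropomyosins, calponins and caldesmon lie along these filaments, and alpha-actinin, filamin, vinculin and talin tie them to dense bodies and to the membrane. Many of the genes are targets of the transcription factor SRF with its coactivators, which bind the CArG box, and when VSMCs are cultured they lose much of this apparatus while they start to divide and to make matrix. Actin filaments, filamins and adhesion proteins are also part of every other adherent cell, so that the 34 genes range from smooth muscle markers to general cytoskeleton.

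Barcodes entered as cells if they held 3000 or more UMIs of 300 or more genes and if mitochondrial UMIs made up less than 20%. This left 4866 cells of replicate 1 and 6824 of replicate 2, with medians of 22234.5 and 16310.0 UMIs. Of their barcodes, 9 occurred in both libraries. Disjoint classes were formed from other genes than the 34. Endothelial cells (ECs) had at least 2 UMIs in at least 2 of *Pecam1*, *Cdh5*, *Cldn5* and *Gja4*, cycling cells had 6 or more UMIs of *Mki67*, *Top2a* and *Cenpf* together, and the other cells were Myh11-high (at least 5 *Myh11* UMIs), Myh11-low (0 or 1) or between. Replicates 1 and 2 held 313 and 574 Myh11-high cells, 2771 and 4152 Myh11-low cells, 230 and 306 cells in between, 1450 and 1651 cycling cells, and 102 and 141 ECs. The endothelial rule took precedence, and 19 and 21 of the ECs also met the cycling rule. The part of cycling in the comparisons with ECs was not tested. Median UMIs were 23754 and 18463 in Myh11-high cells against 19734 and 14544.5 in Myh11-low cells, and 14629 and 10250.0 in ECs. The label of VSMCs was checked against *Acta2*, of which Myh11-low cells still had 3796 and 2135 counts per 1e+06 UMIs (CPM). ECs had 1700 and 1131 CPM of it, so that this level alone does not identify Myh11-low cells as VSMCs. Of the Myh11-low cells, 67.1% and 67.8% also had at least 2 UMIs of *Pdgfra* and *Lum* together. Both are fibroblast markers, but the study reads them as markers of modulated VSMCs in its cultures. These UMIs thus do not tell fibroblasts from modulated VSMCs. All 7 fibroblast markers checked were detected in both classes, with a summed level of 1015 and 1185 CPM in Myh11-low cells and of 648 and 189.9 CPM in Myh11-high cells. Summed levels in Myh11-low against Myh11-high cells were 45.2 and 34.9 against 11.8 and 4.37 CPM for 6 macrophage, 23.2 and 33.5 against 12.5 and 5.48 CPM for 4 Schwann cell, and 176 and 168 against 234 and 186 CPM for 4 pericyte markers. The part of these cell types in the results was not tested, and values without cells with at least 2 UMIs of *Pdgfra* and *Lum* are given with the results.

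Promoter sequences are shown because genes with the same SRF motif fell to very different degrees. RefSeq promoters (GRCm38.p6, from 250 bases before to 50 after a start site) were found for 29 of the 34 genes, and the CArG box, the motif that SRF binds, was searched. Its pattern reads the same on both strands. It stood in 10 of their 39 promoters, in 8 genes, against 535 of all 32851 RefSeq promoters (1.63%), and a gene has 1 or more promoters. Windows with 20 bases on either side are given 5' to 3' on the strand of the gene for 6 of these genes, with the CArG box in capitals. Those of *Myl6* and *Fhl1*, and a further one of *Fhl2* in an exon, are left out, so that the groups below come from this choice. The windows of *Cnn2* (chr10:79988524-79988573, plus strand), coding for calponin 2, and *Vcl* (chr14:20929151-20929200, plus strand), coding for vinculin, lie upstream of the gene. That of *Fhl2* (chr1:43163963-43164012, minus strand), coding for a LIM protein, lies in an intron before an inner start site. These 3 genes kept over 50% of their Myh11-high level in Myh11-low cells. The windows of *Myl9* (chr2:156775283-156775332, plus strand), a myosin light chain gene, *Ldb3* (chr14:34588687-34588736, minus strand), a Z-disc protein gene, and *Acta1* (chr8:123894819-123894868, minus strand), the skeletal muscle actin gene, lie upstream of the gene. These 3 genes kept less than 50% in both libraries.
Cnn2: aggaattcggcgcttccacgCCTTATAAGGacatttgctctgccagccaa
Vcl: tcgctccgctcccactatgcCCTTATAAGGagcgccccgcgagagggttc
Fhl2: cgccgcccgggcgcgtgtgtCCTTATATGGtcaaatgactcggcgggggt
Myl9: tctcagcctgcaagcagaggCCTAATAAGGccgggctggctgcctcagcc
Ldb3: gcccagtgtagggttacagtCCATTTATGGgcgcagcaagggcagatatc
Acta1: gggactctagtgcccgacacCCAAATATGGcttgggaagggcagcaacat
A match describes the letters and says nothing of binding. That *Cnn1* or *Pdlim3* had no match says only that the motif is not in their window.

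Most of the 34 genes stood lower in Myh11-low cells, but by very different amounts. In replicates 1 and 2, all 34 genes together took 3.28% and 2.66% of the UMIs of Myh11-high cells (mean 2.97% ± 0.44, SD, n = 2) and 1.90% and 1.37% of those of Myh11-low cells (1.63% ± 0.37). In the same cells *Acta2*, *Tagln* and *Myh11* together went from 2.35% and 2.56% to 0.588% and 0.327%. The libraries are the replicates, and sums of UMIs per library and class were compared with edgeR's quasi-likelihood test, with p-values adjusted over all 14086 genes tested (Benjamini-Hochberg). Log2 fold changes are given ± SE. All 34 genes passed its filter on low counts, also when Myh11-high cells were left out of the filter. At an adjusted p under 0.05, 16 of the 34 fell in Myh11-low cells, against 2.4% of all genes, and 0 rose, against 0.873% of all genes. DESeq2 called 23 lower, against 5.89% of all genes, and 0 higher. In at least 1 alternative, 14 of the 16 calls were lost, and *Ppp1r14a* and *Pdlim3* kept theirs in all. All 14 were lost with cycling cells left in the *Myh11* classes, a fit of 4 sums in place of 8. An unadjusted p under 0.05 was found for 28 of the 34. Here and below, such unadjusted counts stand without the share of all genes and only describe the 34 genes. The sums of one library come from the same culture, and with the library as a block 32 of the 34 fell, against 11.6% of all genes, and 0 rose, against 11.2%. The median log2 fold change was -1.48 over the 34 genes and 0.03 over all genes tested. The smallest p of an exact permutation test of 2 against 2 libraries is 0.33, so that none is given.

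**Figure D1:**
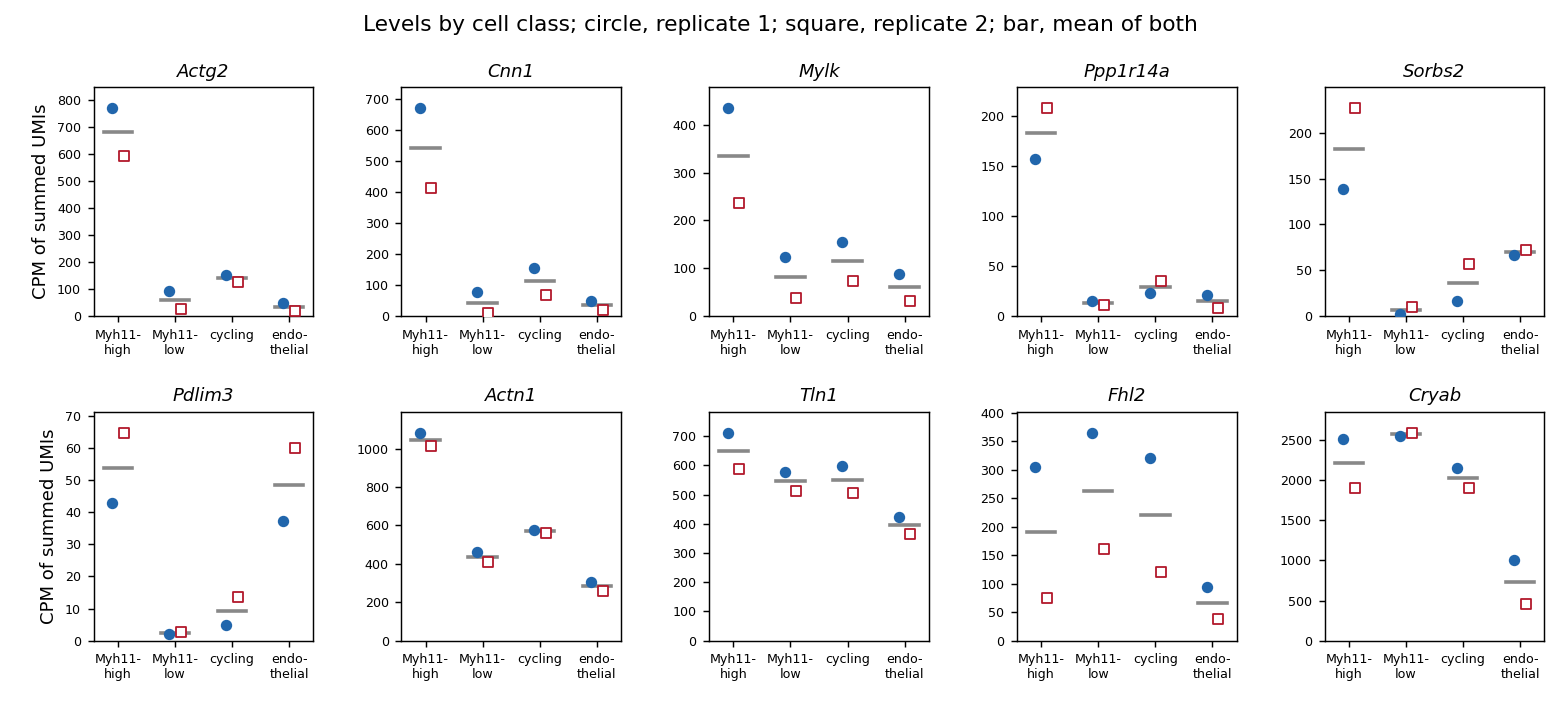
CPM of the summed UMIs (vertical axes, each from 0) of 10 of the genes in Myh11-high, Myh11-low, cycling and endothelial cells of replicate 1 (circle) and replicate 2 (square), with the mean of both as a bar. *Actg2* and *Cnn1* were high in Myh11-high cells alone of these classes, *Sorbs2* and *Pdlim3* were also high in ECs, and *Cryab* was at least as high in Myh11-low as in Myh11-high cells.

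Of the actins, the smooth muscle isoform *Actg2* was at 769 and 591 CPM in Myh11-high cells of replicates 1 and 2 and at 91.8 and 25.9 CPM in Myh11-low cells (log2 fold change -3.60 ± 0.66, adjusted p = 0.0411). It was thus kept at 11.9% and 4.38% of the Myh11-high level. *Acta1*, the skeletal muscle actin, was at 34.7 and 10.1 CPM in Myh11-high and 4.59 and 2.67 CPM in Myh11-low cells (log2 fold change -2.70 ± 0.81, adjusted p = 0.138, 0.000787 with the block). Both isoforms were lower in every Myh11-low sum than in every Myh11-high sum, but the Myh11-high levels of *Acta1* lay far apart between the libraries. The coding sequences of actins are near-identical, so that values are uncertain wherever reads fell in sequence that they share. As a comparison, the cytoplasmic beta-actin gene *Actb* was at 13733 and 11497 CPM and at 9759 and 8043 CPM (log2 fold change -0.58 ± 0.20, adjusted p = 0.190, 0.000403 with the block).

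Of the 8 thin filament regulators, 1 fell in Myh11-low cells without the block and 8 with it, against 2.4% and 11.6% of all genes, and the levels kept differed widely. *Cnn1*, coding for calponin 1, which inhibits the actin-activated ATPase of myosin, was at 671 and 414 CPM in Myh11-high cells and at 76.0 and 8.33 CPM in Myh11-low cells (log2 fold change -3.75 ± 1.04, adjusted p = 0.117, 0.00214 with the block). Its remaining level differed far more between the libraries than that in Myh11-high cells, and the call depended on the block. *Cnn2*, the calponin of many cell types, was at 814 and 465 CPM and at 643 and 375 CPM (log2 fold change -0.41 ± 0.47, adjusted p = 0.733, 0.00480 with the block), and here the ranges of the classes overlapped. *Lmod1*, coding for leiomodin 1, an actin nucleator of smooth muscle, was at 401 and 299.8 CPM and at 149 and 63.6 CPM (log2 fold change -1.79 ± 0.47, adjusted p = 0.102, 0.000533 with the block). *Smtn*, coding for smoothelin, which binds actin filaments, was the single one of the 8 to be called without the block, with 121 and 122 CPM against 56.3 and 42.6 CPM (log2 fold change -1.38 ± 0.16, adjusted p = 0.0119).

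The 3 tropomyosin genes also kept different levels. *Tpm2*, coding for beta-tropomyosin, was kept at 43.5% and 21.4% of the Myh11-high level (log2 fold change -1.66 ± 0.60, adjusted p = 0.207, 0.00490 with the block), *Tpm1* at 50.7% and 56.3% (log2 fold change -1.001 ± 0.37, adjusted p = 0.209, 0.000121 with the block) and *Tpm4* at 79.3% and 71.5% (log2 fold change -0.48 ± 0.18, adjusted p = 0.233, 0.00224 with the block). *Tpm2* is typical of muscle, *Tpm1* is spliced into muscle and nonmuscle forms that these counts pool, and *Tpm4* is found in most cells. *Cald1*, coding for caldesmon, which also has a smooth muscle and a nonmuscle splice form, was at 3682 and 2533 CPM in Myh11-high and at 2185 and 1321 CPM in Myh11-low cells (log2 fold change -0.90 ± 0.38, adjusted p = 0.273, 0.000154 with the block).

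All 6 genes of the myosin light chains and of their control were lower in Myh11-low cells, 4 of them called without and 6 with the block, against 2.4% and 11.6% of all genes. *Myl9*, the regulatory light chain of smooth muscle myosin, was at 1812 and 1871 CPM in Myh11-high cells and at 588 and 281 CPM in Myh11-low cells (log2 fold change -2.16 ± 0.41, adjusted p = 0.0431). The essential light chain *Myl6*, which nonmuscle myosin also uses, was at 4813 and 4390.2 CPM and at 3569 and 2946 CPM (log2 fold change -0.58 ± 0.18, adjusted p = 0.143, 0.000687 with the block). A related regulatory light chain gene, *Myl12b*, was at 152 and 160.2 CPM and at 196 and 263 CPM and was called higher with the block alone (log2 fold change 0.47 ± 0.18, adjusted p = 0.238, 0.0111 with the block).

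*Mylk*, coding for the kinase that phosphorylates the regulatory light chain and for its short form telokin, which are not told apart here, was at 435 and 236 CPM in Myh11-high and at 123 and 38.6 CPM in Myh11-low cells (log2 fold change -2.13 ± 0.72, adjusted p = 0.182, 0.000315 with the block). *Mylk4*, a kinase gene of the same family, showed the largest fold of the 34, from 128 and 184 CPM to 0.100 and 1.82 CPM (log2 fold change -7.41 ± 1.23, adjusted p = 0.0318). Behind the last 2 values were only 6 UMIs of 2771 cells and 123 UMIs of 4152 cells, so that the size of this fold is uncertain. *Ppp1r14a*, coding for CPI-17, an inhibitor of myosin phosphatase, fell from 157 and 207 CPM to 14.7 and 10.8 CPM (log2 fold change -3.91 ± 0.41, adjusted p = 0.00911), and *Ppp1r12b*, coding for a targeting subunit of that phosphatase, fell less, from 107 and 130.4 CPM to 65.1 and 62.1 CPM (log2 fold change -0.98 ± 0.14, adjusted p = 0.0200). The kinase and the phosphatase inhibitor were thus both lower, and in both libraries each more so than the phosphatase subunit, without a test of the difference.

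The 10 genes of dense bodies, Z-discs and LIM proteins spanned the whole range. *Pdlim3*, coding for a PDZ and LIM protein that binds alpha-actinin, was at 42.8 and 64.7 CPM in Myh11-high and at 2.00 and 2.81 CPM in Myh11-low cells (log2 fold change -4.57 ± 0.56, adjusted p = 0.0140). *Sorbs2*, coding for an adaptor protein of stress fibers and Z-discs, was at 139 and 227 CPM and at 2.10 and 10.3 CPM (log2 fold change -4.97 ± 0.90, adjusted p = 0.0389). Both were kept at under 5% of the Myh11-high level in both libraries, and *Pdlim3* at nearly the same share in both (4.67% and 4.34%). *Ldb3*, a Z-disc protein gene, fell from 38.0 and 37.9 CPM to 7.55 and 3.01 CPM (log2 fold change -2.92 ± 0.46, adjusted p = 0.0270), and *Synpo2*, coding for an actin-bundling protein, from 21.6 and 36.5 CPM to 4.49 and 3.97 CPM (log2 fold change -2.86 ± 0.43, adjusted p = 0.0245). *Nexn*, coding for the actin-binding protein nexilin, just missed the threshold without the block, with 357 and 231 CPM against 108 and 68.3 CPM (log2 fold change -1.82 ± 0.38, adjusted p = 0.0546, 8.68e-05 with the block).

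The LIM genes *Csrp1*, *Csrp2*, *Pdlim7* and *Fhl1* were kept at 28.2% to 59.9% of the Myh11-high level. Of these, *Csrp1* (log2 fold change -1.55 ± 0.30, adjusted p = 0.0478) and *Fhl1* (log2 fold change -1.07 ± 0.17, adjusted p = 0.0287) were called without the block, and *Csrp2* (log2 fold change -1.27 ± 0.28, adjusted p = 0.0677, 0.000271 with the block) and *Pdlim7* (log2 fold change -1.04 ± 0.31, adjusted p = 0.136, 0.00307 with the block) with it. *Fhl2*, a further LIM protein gene and the closest relative of *Fhl1* among the 34, went the other way. It was at 305 and 75.6 CPM in Myh11-high cells and at 365 and 161 CPM in Myh11-low cells, 119% and 213% of the Myh11-high level, without a call in either fit (log2 fold change 0.39 ± 0.81, adjusted p = 0.867, 0.0502 with the block). The libraries themselves differed more in *Fhl2* than the classes did.

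Of the 5 cross-linkers and adhesion proteins, 2 fell without the block and 5 with it, against 2.4% and 11.6% of all genes, with a median log2 fold change of -0.82. *Actn1*, coding for alpha-actinin 1, which cross-links actin filaments, fell from 1083 and 1011 CPM to 463 and 411 CPM with little difference between the libraries (log2 fold change -1.34 ± 0.13, adjusted p = 0.00828), and *Flnc*, the filamin of muscle, from 159 and 117 CPM to 66.4 and 43.1 CPM (log2 fold change -1.42 ± 0.28, adjusted p = 0.0475). *Flna*, the filamin of most cells, was at 976 and 746 CPM and at 608 and 421 CPM (log2 fold change -0.82 ± 0.36, adjusted p = 0.293, 0.00210 with the block). *Vcl*, coding for vinculin, which links adhesions to actin, was kept at 72.6% and 58.6% (log2 fold change -0.67 ± 0.31, adjusted p = 0.337, 0.00189 with the block) and *Tln1*, coding for talin 1, which binds integrins, at 81.2% and 87.1% (log2 fold change -0.34 ± 0.16, adjusted p = 0.353, 0.00783 with the block).

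The last 3 genes had little in common. *Abra*, coding for an actin-binding activator of SRF signaling, fell from 46.4 and 49.3 CPM to 0.267 and 2.22 CPM, the latter from 16 and 150 UMIs (log2 fold change -5.35 ± 0.85, adjusted p = 0.0270). The small heat shock protein gene *Hspb7* fell from 120.5 and 101 CPM to 42.4 and 32.7 CPM (log2 fold change -1.64 ± 0.21, adjusted p = 0.0166). *Cryab*, coding for alphaB-crystallin, a chaperone of desmin and actin filaments, was at 2517 and 1907 CPM in Myh11-high cells and at 2551 and 2592 CPM in Myh11-low cells (log2 fold change 0.13 ± 0.34, adjusted p = 0.895, 0.650 with the block), and 99.7% and 99.5% of the Myh11-low cells had a UMI of it. In ECs that share was 52.9% and 36.9% at the lower depth given above.

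**Figure D2:**
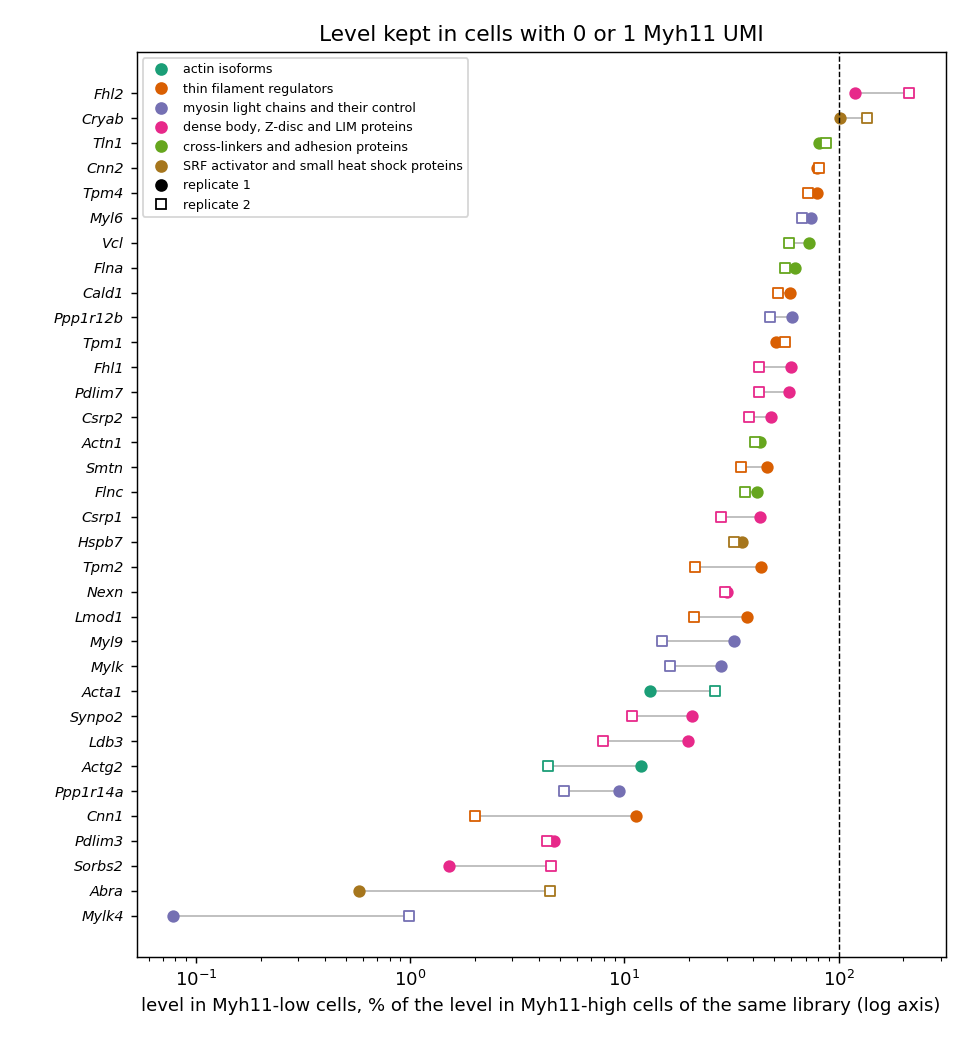
Level of each of the 34 genes in Myh11-low cells as a percentage of its level in Myh11-high cells of the same library (horizontal log axis), for replicate 1 (filled circle) and replicate 2 (open square), colored by role and ordered by the mean. *Mylk4*, *Abra*, *Sorbs2* and *Pdlim3* were under 5% in both libraries, and *Fhl2* and *Cryab* alone were over 100% in both.

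Taking the 2 libraries side by side, 9 of the 34 genes were kept at under 25% of the Myh11-high level in both (*Actg2*, *Cnn1*, *Mylk4*, *Ppp1r14a*, *Synpo2*, *Sorbs2*, *Ldb3*, *Pdlim3* and *Abra*), 15 at 25% to 75% in both, and 4 at over 75% in both (*Cnn2*, *Tln1*, *Cryab* and *Fhl2*). The other genes lay on both sides of a bound. For 31 of the 34, every Myh11-low sum lay below every Myh11-high sum, and the exceptions were *Cnn2*, *Fhl2* and *Cryab*. The share of all genes with such a separation was not computed, so that this count only describes the 34 genes. Cells between the classes, with 2 to 4 *Myh11* UMIs, lay in between, with 2.72% and 1.91% of their UMIs from the 34 genes.

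Genes outside the 34 gave the scale for these values. Of all genes tested, 2.4% fell without and 11.6% with the block, and 0.873% and 11.2% rose. Of 11 nonmuscle paralogs of the members, 2 fell without the block, *Actn4* (log2 fold change -1.34 ± 0.20, adjusted p = 0.0236) and *Myl12a* (log2 fold change -0.69 ± 0.11, adjusted p = 0.0301), and 5 fell and 2 rose with it. Of 8 genes of contraction signaling, 1 fell without and 6 with the block, and of 13 adhesion and stress fiber genes 5 and 7 fell. Of 14 other smooth muscle genes tested, 4 fell without and 12 with the block, led by *Kcnmb1*, a subunit of the calcium-activated potassium channel, which went from 51.8 and 66.02 CPM to 0.267 and 0.960 CPM (log2 fold change -6.65 ± 0.68, adjusted p = 0.00867). The classical markers *Acta2* (log2 fold change -2.47 ± 0.32, adjusted p = 0.0172) and *Tagln* (log2 fold change -2.44 ± 0.30, adjusted p = 0.0145) both fell, by less than *Actg2*, *Ppp1r14a* or *Pdlim3* but by more than *Myl9* or *Mylk*, without a test of these differences. Striated muscle markers were checked because *Acta1*, *Ldb3*, *Synpo2*, *Mylk4* and *Abra* are also skeletal or heart muscle genes. They summed to 25.4 and 16.01 CPM over 12 genes in Myh11-high cells and to 10.1 and 10.2 CPM in Myh11-low cells. *Tnnt2* was the highest of them in Myh11-high cells, at 12.8 and 6.51 CPM against 4.19 and 7.15 CPM in Myh11-low cells. *Myh1* was at 9.15 and 2.06 CPM against 1.82 and 0.635 CPM, and *Actc1* at 0.381 and 4.28 CPM against 0.350 and 0.118 CPM. *Tnnt3* and *Tnni2* were higher in Myh11-low cells of both libraries. *Tnni2*, *Myh6* and *Mb* were at 0 in Myh11-high cells. The part of these markers in the result was not tested.

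Levels were also low in Myh11-low cells with few UMIs of *Pdgfra* and *Lum*. The other fibroblast markers were not used for this split, such as *Dcn*, at 397 and 636 CPM in Myh11-low cells. The cells with few *Pdgfra* and *Lum* UMIs can thus still hold fibroblasts, and those with more can be modulated VSMCs. Among Myh11-low cells with fewer than 2 UMIs of *Pdgfra* and *Lum*, the 34 genes took 1.94% and 1.42% of the UMIs, and among those with 2 or more 1.89% and 1.35%. *Actg2* was kept at 13.3% and 6.53% of the Myh11-high level in the former and at 11.5% and 3.61% in the latter, *Cnn1* at 15.1% and 3.43% and at 10.1% and 1.51%, and *Cryab* at 95.5% and 135% and at 103% and 136%. Without the cells with 2 or more such UMIs, 11 of the 34 genes were called lower, against 1.42% of all genes, and *Myl9*, *Mylk4*, *Csrp1*, *Abra* and *Sorbs2* lost their call. *Sorbs2*, for example, was then at 1.74% and 10.9% of the Myh11-high level and not called (adjusted p = 0.135). Its call was also lost after free RNA was subtracted with *Tie1*, *Emcn* and *Robo4* (adjusted p = 0.143) or with the planned list (adjusted p = 0.0672), with log2 fold changes of -5.53 and -7.46, while with the other settings and 8 sums its adjusted p was 0.000405 to 0.0428 (2.19e-09 with DESeq2).

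Most of the genes rose by degrees with *Myh11*. Cells that were neither cycling nor ECs were summed by their *Myh11* UMIs (0, 1, 2 to 4, 5 to 9, 10 to 19, and 20 or more), which is a description without a test, since depth was also higher at the top, with medians of 27814 and 22018 UMIs against 19679.5 and 14535.5 in cells with 0. In both libraries 21 of the 34 genes rose at each of the 5 steps. The share of all genes that did so was not computed, so that this count only describes the 34 genes. *Cnn1* rose through 65.3, 153, 323, 501, 608 and 899 CPM in replicate 1 and through 6.37, 31.9, 116, 261, 437 and 727 CPM in replicate 2. *Ppp1r14a* rose through 13.9, 21.0, 45.2, 77.9, 119.7 and 268 CPM and through 9.38, 28.2, 70.7, 136, 215 and 361 CPM. Cells with 5 to 9 *Myh11* UMIs thus had 55.7% and 35.9% of the *Cnn1* level, and 29.1% and 37.7% of the *Ppp1r14a* level, of cells with 20 or more.

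*Mylk* leveled off earlier in replicate 1, at 470.1 CPM with 10 to 19 UMIs and 469.6 CPM with 20 or more, but went on rising in replicate 2, from 235 to 352 CPM. *Tln1* differed little, with 575 CPM at 0 UMIs and 691 CPM at 20 or more in replicate 1, and 511 and 652 CPM in replicate 2. *Fhl2* and *Cryab* were the 2 genes that were lower in cells with 20 or more *Myh11* UMIs than in cells with 0 in both libraries. *Fhl2* went through 360.0, 399.7, 461, 427, 295 and 184 CPM in replicate 1, with its peak at 2 to 4 UMIs, and through 159.9, 172, 109, 77.8, 69.3 and 85.6 CPM in replicate 2, with its peak at 1 UMI. *Cryab* went from 2509.6 to 2078 CPM and from 2607 to 1933 CPM.

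**Figure D3:**
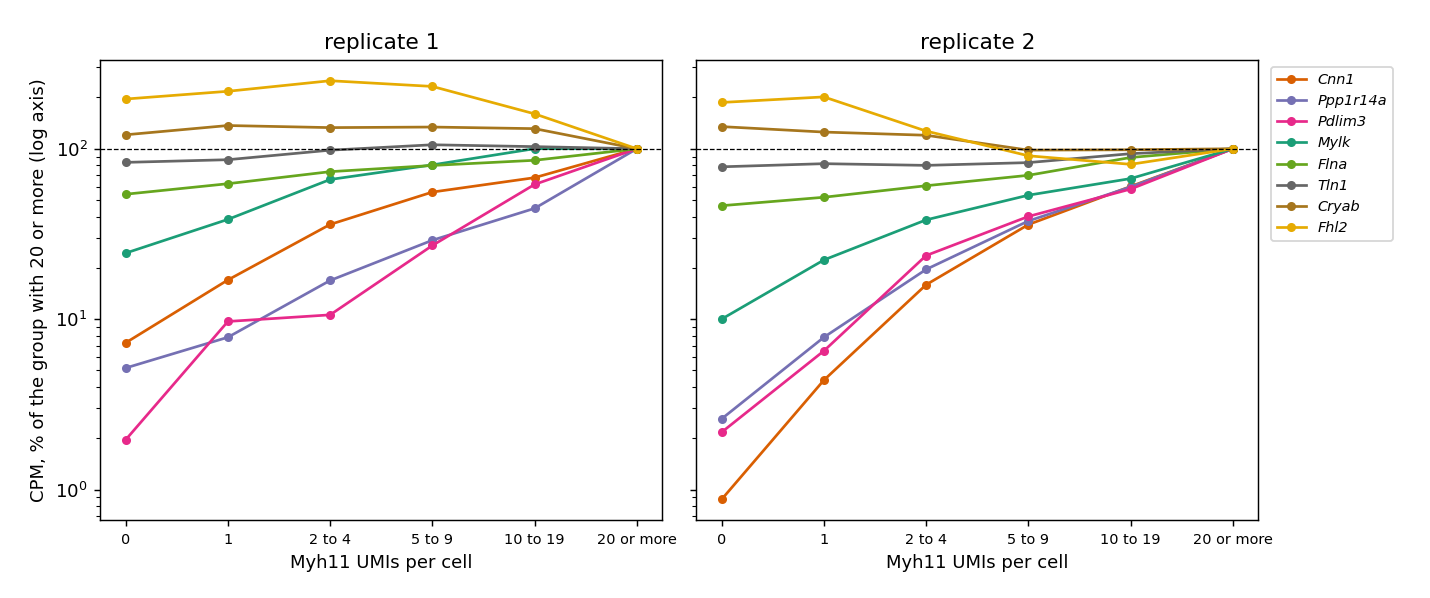
CPM of 8 genes in cells grouped by their *Myh11* UMIs (horizontal axis), as a percentage of the level in the group with 20 or more (vertical log axis), for each replicate. *Cnn1*, *Ppp1r14a* and *Pdlim3* rose over the whole range, *Tln1* was nearly flat, and *Fhl2* and *Cryab* lay above 100% in cells with 0 UMIs.

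The fall with *Myh11* was also found among cycling cells. Of these, 160 and 305 had at least 5 *Myh11* UMIs and 1183 and 1210 had 0 or 1. Median UMIs were 32773.5 and 24633 in the former and 28147 and 19778.5 in the latter. Cells outside the cycle had 23754 and 18463 in the Myh11-high and 19734 and 14544.5 in the Myh11-low class. Cycling cells with high *Myh11* kept the 34 genes at 2.76% and 2.07% of their UMIs, against 1.78% and 1.26% in cycling cells with low *Myh11*. *Actg2* was at 505 and 445 CPM in the former and at 89.3 and 26.7 CPM in the latter, and *Cnn1* at 517 and 265 CPM and at 87.0 and 8.70 CPM. The low values were close to those outside the cycle, and the high values lay below them. Within cycling cells, 5 of the 34 genes fell with *Myh11* without the block (*Synpo2*, *Hspb7*, *Ppp1r14a*, *Pdlim3* and *Actn1*), against 1.48% of 13352 genes, and 29 with it, against 9.02%. The largest of the called falls were those of *Pdlim3* (log2 fold change -4.13 ± 0.56, adjusted p = 0.0249) and *Ppp1r14a* (log2 fold change -3.77 ± 0.27, adjusted p = 0.00331). The call of *Pdlim3* was lost without Myh11-low cells with *Pdgfra* and *Lum* UMIs (adjusted p = 0.0635) and with free RNA subtracted by *Tie1*, *Emcn* and *Robo4* (adjusted p = 0.0820).

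Whether the fall with *Myh11* differed between cycling and other cells was tested as an interaction. The estimated difference was above 0 for 32 of the 34 genes, with a median of 0.31 on the log2 scale against 0.04 over all genes. A value above 0 is a smaller fall in cycling cells, except for *Fhl2* and *Cryab*, which did not fall in Myh11-low cells. However, 0 of the 34 genes, against 0% of all 13352 genes, were called with edgeR, with or without the block, or with DESeq2. An unadjusted p under 0.05 was found for 0 without the block, 10 with it and 0 with DESeq2, without the share of all genes beside it. No difference between cycling and other cells was thus called, and this does not show that the falls were equal. The contrasts share no cells, but their sums come from the same 2 cultures. The part of the higher depth of cycling cells in these estimates was not tested.

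**Figure D4:**
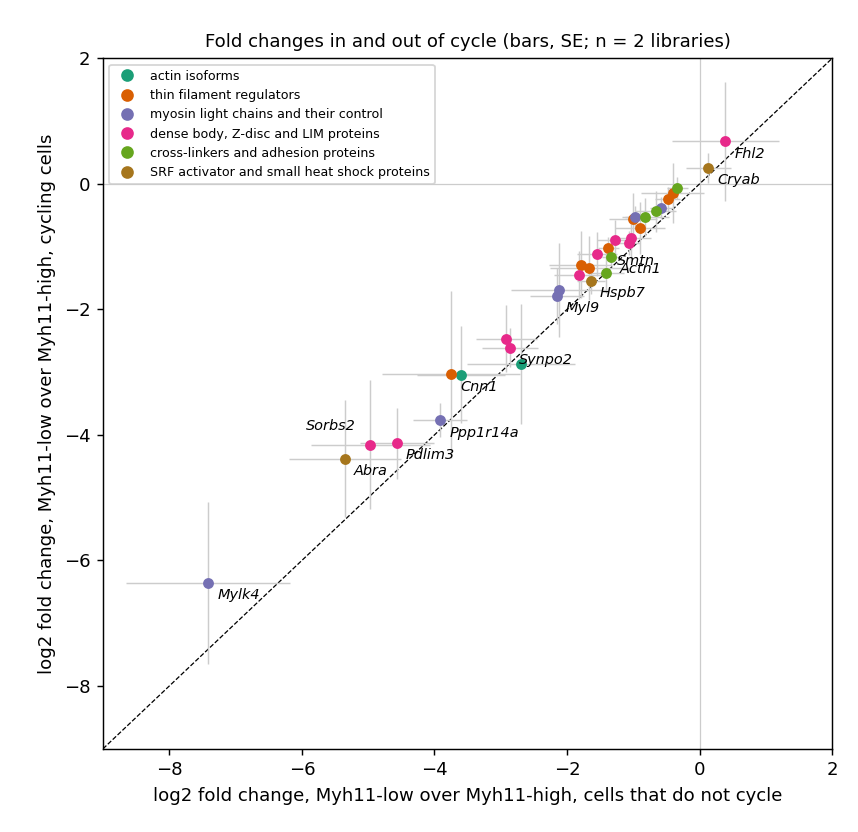
Log2 fold change from Myh11-high to Myh11-low cells among cells that do not cycle (horizontal axis) and among cycling cells (vertical axis) for the 34 genes, with SE bars (n = 2 libraries) and the line of equal change. The points lie along the line and mostly just above it, where a gene that falls does so less in cycling cells, and *Mylk4*, *Abra*, *Sorbs2* and *Pdlim3* lie at the far end of both axes.

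Cycling and other cells of the same *Myh11* class were compared next. The classes are cut by *Myh11* UMIs per cell, and cycling cells were deeper, so that the same cut admits lower *Myh11* shares. The part of depth in this comparison was not tested. Among Myh11-high cells the median log2 fold change was -0.46 over the 34 genes and -0.06 over all genes. Of the 34, 33 were below 0, a count given without the share of all genes. Among Myh11-low cells the medians were -0.06 and -0.04. In Myh11-high cells, 0 of the 34 genes were called lower in cycling cells by edgeR, against 0.315% of all genes (4 had an unadjusted p under 0.05, and DESeq2 called 1, against 1.13% of all genes), and 11 with the block, against 6.89%. In Myh11-low cells, 0 were called in either direction, against 0.262% of all genes called lower (3 had an unadjusted p under 0.05, DESeq2 called 1 lower, against 1.4% of all genes, and 1 higher, against 7.55%). With the block, 4 fell in cycling Myh11-low cells (*Hspb7*, *Flnc*, *Myl6* and *Acta1*), against 8.15%, and 1 rose (*Smtn*), against 14% of all genes. *Hspb7* was at 72.7 and 55.5 CPM in cycling and 120.5 and 101 CPM in other Myh11-high cells, and at 23.2 and 20.9 CPM and 42.4 and 32.7 CPM in Myh11-low cells. *Smtn* was at 167 and 159.5 CPM in cycling and 121 and 122 CPM in other Myh11-high cells, and at 88.5 and 72.7 CPM against 56.3 and 42.6 CPM in Myh11-low cells. *Hspb7* was thus lower and *Smtn* higher in cycling cells of both *Myh11* classes and both libraries.

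As 1 class, cycling cells are a mix of *Myh11* levels. In replicates 1 and 2, 1183 of 1450 and 1210 of 1651 had low *Myh11*, and 160 and 305 had high *Myh11*. The 34 genes took 1.94% and 1.46% of the UMIs of this class, near the 1.90% and 1.37% of Myh11-low cells. Its *Myh11* level was 68.0 and 105 CPM, against 5.19 and 4.61 CPM in Myh11-low cells. The part of this mix in the comparisons below was not tested. Against Myh11-high cells 10 of the 34 genes fell, against 2.68% of all genes, and 32 with the block, against 13.9%. The called falls were largest for *Abra* (log2 fold change -3.39 ± 0.77, adjusted p = 0.0424) and *Ppp1r14a* (log2 fold change -2.75 ± 0.39, adjusted p = 0.00799). The call of *Abra* was lost in 5 of 14 alternatives, with adjusted p-values of 0.0564 to 0.125. Against Myh11-low cells only *Smtn* rose (log2 fold change 0.93 ± 0.16, adjusted p = 0.0192), against 4.86% of all genes called higher, and 12 rose with the block, against 13.7%. In these comparisons, scaling by library totals alone in place of edgeR's TMM factors moved the median of all genes by 0.11 for cycling against Myh11-high cells.

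ECs were the outgroup, a cell type that shares the general cytoskeleton but not the smooth muscle apparatus. Their class was defined without the 8 endothelial markers used as a check, which summed to 2705 and 3014 CPM in ECs and to 37.3 and 27.0 CPM in Myh11-low cells. The 34 genes took 1.02% and 0.704% of the UMIs of ECs. Against Myh11-high cells, 29 of them were lower in ECs, against 10.7% of all genes, and 33 with the block, against 19.3%. The gene without a call in either fit was *Pdlim3*, at 37.2 and 60.0 CPM in ECs and 42.8 and 64.7 CPM in Myh11-high cells (log2 fold change -0.42 ± 0.51, adjusted p = 0.618). Scaling by library totals moved the median of all genes by 0.26 in this comparison and by 0.18 against Myh11-low cells, toward higher values in ECs, and 27 of the 34 genes, against 6.47% of all genes, were then called lower than in Myh11-high cells.

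Against Myh11-low cells, both widely expressed and muscle genes were lower in ECs. Here 11 of the 34 genes were lower in ECs, against 10% of all genes, and 20 with the block, against 20.3%, and 2 were higher in both fits, against 11.3% and 18.1%. Among the lower genes was *Cryab*, at 1004 and 451 CPM in ECs (log2 fold change -2.003 ± 0.36, adjusted p = 0.0101). *Fhl1* (log2 fold change -1.81 ± 0.18, adjusted p = 0.00117) and *Ppp1r12b* (log2 fold change -1.56 ± 0.16, adjusted p = 0.00123) were lower as well, and so were the general cytoskeletal genes *Myl6* (log2 fold change -0.88 ± 0.18, adjusted p = 0.0155), *Tpm4* (log2 fold change -0.77 ± 0.19, adjusted p = 0.0296), *Actn1* (log2 fold change -0.80 ± 0.13, adjusted p = 0.00809), *Vcl* (log2 fold change -1.43 ± 0.32, adjusted p = 0.0230) and *Tln1* (log2 fold change -0.65 ± 0.17, adjusted p = 0.0355). The calls of *Tln1* and *Tpm4* were lost with library totals (adjusted p = 0.0787 and 0.0562), that of *Tln1* also without the low-count filter (adjusted p = 0.0580), and that of *Cryab* with free RNA of the planned genes subtracted (adjusted p = 0.148). For *Actg2*, *Cnn1*, *Mylk*, *Ppp1r14a* and *Synpo2* no difference between ECs and Myh11-low cells was called, with wide errors, such as those of *Cnn1* (log2 fold change -0.51 ± 1.02, adjusted p = 0.761).

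The 2 genes that were higher in ECs than in Myh11-low cells were *Pdlim3* and *Sorbs2*, both among the genes that fell most with *Myh11*. *Pdlim3* was at 37.2 and 60.0 CPM in ECs and 2.00 and 2.81 CPM in Myh11-low cells (log2 fold change 4.15 ± 0.57, adjusted p = 0.00398), and *Sorbs2* at 66.8 and 72.0 CPM and 2.10 and 10.3 CPM (log2 fold change 3.31 ± 0.86, adjusted p = 0.0366). A UMI of *Pdlim3* was found in 25.5% and 32.6% of ECs against 2.53% and 2.89% of Myh11-low cells, and after thinning all cells to 3000 UMIs the expected shares were 8.88% and 14.1% against 0.58% and 0.96%. For *Sorbs2* the shares were 51.0% and 42.6% against 2.89% and 7.51% of cells, and 18.7% and 19.2% against 0.59% and 2.63% after thinning. The call of *Sorbs2* was lost without Myh11-low cells with *Pdgfra* and *Lum* UMIs (adjusted p = 0.167) and after free RNA was subtracted with a share from *Tie1*, *Emcn* and *Robo4* (adjusted p = 0.139). That of *Pdlim3* was not lost in these 2 settings. In the GENCODE annotation of GRCm38, *Sorbs2* (chr8:45507788-45827906) and *Pdlim3* (chr8:45885461-45919548) lie next to each other on the plus strand, 57554 bases apart, with no other protein-coding gene between them.

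Smooth muscle RNA that is free in the suspension or shares a droplet can also give UMIs in ECs and in Myh11-low cells. Of the ECs, 5 and 3 cells had more than 1 *Myh11* UMI, and without them *Actg2* went from 48.4 and 19.4 CPM to 13.1 and 3.67 CPM and *Cnn1* from 48.4 and 19.4 CPM to 10.8 and 3.67 CPM. *Pdlim3* stayed at 31.3 and 58.7 CPM and *Sorbs2* at 70.5 and 66.6 CPM. A share of free RNA of 9.96% and 5.47%, estimated from *Tie1*, *Emcn* and *Robo4* in cells that are no ECs, was too high for Myh11-low cells of replicate 1, where it predicted 1.60 CPM of *Mylk4*, 0.517 CPM of *Abra* and 2.72 CPM of *Sorbs2* against 0.100, 0.267 and 2.10 CPM measured. No background level of *Actg2* and *Cnn1* in ECs was therefore set. The same share, which was not estimated in ECs themselves, predicted 0.93 and 0.64 CPM of *Pdlim3* and 2.72 and 1.84 CPM of *Sorbs2*. The part of free RNA in their levels in ECs was not tested. *Abra* and *Acta1* had 0 UMIs in the 97 and 138 ECs that were left, which allows up to 1.71 and 1.83 CPM for counting error only.

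**Figure D5:**
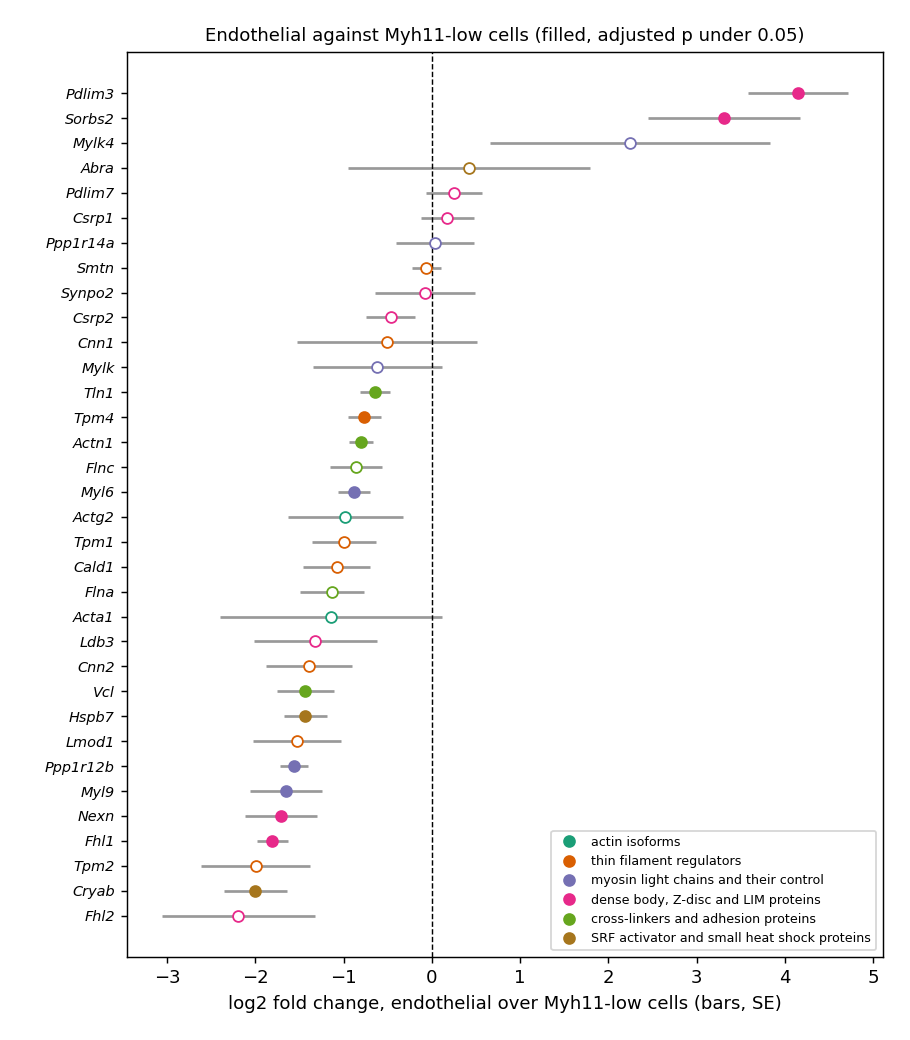
Log2 fold change of ECs over Myh11-low cells for each of the 34 genes with SE bars (n = 2 libraries), colored by role, filled where the adjusted p of edgeR was under 0.05. *Pdlim3* and *Sorbs2* stand alone to the right with a call, and 11 genes are called to the left. *Mylk4*, *Abra* and *Acta1*, with wide bars, rest on few UMIs in ECs.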

How the data were processed

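Primary aortic VSMCs of 2 wildtype cultures (biological replicates 1 and 2, day 5) were measured by 10x Genomics 3' scRNA-seq. The authors aligned the reads with Cell Ranger and deposited a UMI count for every barcode and each of 31053 genes, in whole numbers without normalization. The submitters' processing notes name version 3.0.2 and the build mm10, the header of replicate 2 names version 3.1.0, and this difference was not resolved. Library totals were 127949633 and 132561822 UMIs. The deposited counts include empty droplets, and the cell filter is that of the study. Doublets were kept.

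Counts were summed per library and class (8 sums). Genes in at least 10 kept cells (16494) were tested with edgeR 4.0.16 in R 4.3.3 (TMM, filterByExpr, quasi-likelihood F test, Benjamini-Hochberg, threshold 0.05), without the 8 genes that define the classes. A second fit split cycling cells by *Myh11*. SEs were computed from the log2 fold change and F (its size divided by the root of F). No p-value was made from cells. Since nothing further is known of the mice behind each culture, p-values without the block measure the spread between these 2 cultures. Those with the block measure the spread that is left once a shift common to all classes of a culture is taken out. Sums of the same number come from the same culture, and their deviations from the class means correlated at 0.380 to 0.910 across genes in all 12 pairs of classes, so that the fit with the library as a block is printed where it changes a call. CPM per library are of the raw sums, without TMM. Exact 95% binomial intervals and limits of 3 counts cover counting error only.

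The 34 genes, all of which are named, their roles, the comparison lists and the tests were chosen with earlier results of these data known. The fits without the block were run on simulated counts, drawn independently for each sum and without a shift by library. This simulation cannot weigh the fits with and without the block against each other. Alternatives were DESeq2 1.42.0, its size factors, library totals, no low-count filter, and other *Myh11* and cell limits. Others were the removal of free RNA, of cells with many UMIs, or of Myh11-low cells with *Pdgfra* and *Lum* UMIs. One way to remove free RNA, with *Tie1*, *Emcn* and *Robo4*, was chosen after seeing the data. This was done since VSMCs express some of the genes planned for it. The median share of free RNA from the planned genes was 30.9% and 24.3% in replicates 1 and 2, which is thus too high. Calls gained or lost with the planned genes rest on that share. Annotation was GENCODE M21 and RefSeq (GRCm38.p6).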

Additional observations from a re-analysis of the deposited data

How the results depend on the processing

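The share of all genes called in the same fit and direction stands in parentheses after each count of the 34 genes. In Myh11-low against Myh11-high cells, 0 were called higher under any alternative tried, and the lower calls were 11 to 23 except for 32 (11.6%) with the replicate block and 2 (0.517%) with cycling cells left in the *Myh11* classes, in a fit of 4 sums in place of 8. With the replicate block, lower calls also went to 32 (13.9%) in cycling against Myh11-high cells, 29 (9.02%) with *Myh11* within cycling cells, 20 (20.3%) in ECs against Myh11-low cells, and 11 (6.89%) and 4 (8.15%) in cycling against other Myh11-high and Myh11-low cells, and higher calls to 12 (13.7%) in cycling against all Myh11-low cells and 1 (14%) in cycling against other Myh11-low cells. With DESeq2 these counts were 19 (6.87%), 17 (4.55%), 17 (11.8%), 1 (1.13%) and 1 (1.4%) lower and 4 (7.89%) and 1 (7.55%) higher. With *Myh11* at 10 or more against 0, 19 (4.41%) were lower in cycling against Myh11-high cells, 12 (3.73%) lower within cycling cells and 2 (5.19%) higher in cycling than in Myh11-low cells, and with *Myh11* relative to depth 10 (3.42%) and 2 (5.08%) for the latter comparisons. After free RNA was subtracted with the planned genes, 18 (12.5%) were lower in ECs than in Myh11-low cells, 10 (1.71%) lower within cycling cells, 2 (0.443%) lower and 1 (5.2%) higher in cycling among Myh11-low cells, and 3 (4.16%) higher in cycling than in Myh11-low cells. With *Tie1*, *Emcn* and *Robo4* instead, 2 (4.69%) were higher in cycling and 1 (11.1%) in ECs than in Myh11-low cells. Without Myh11-low cells with *Pdgfra* and *Lum*, 1 (11.1%) was higher in ECs than in Myh11-low cells, 2 (0.469%) lower within cycling cells, and 1 (0.222%) lower in cycling among Myh11-high cells. With ECs of at most 1 *Myh11* UMI, 17 (11.5%) were lower in ECs than in Myh11-low cells. Beside the calls lost that are given with the results, and beside cycling cells left in, calls were lost in Myh11-low against Myh11-high cells for *Actg2* and *Myl9* without the 5% of cells with the most UMIs, for *Actg2*, *Ppp1r12b* and *Sorbs2* with free RNA of the planned genes subtracted, for *Sorbs2* and *Abra* with that of *Tie1*, *Emcn* and *Robo4*, and for *Myl9* with ECs of at most 1 *Myh11* UMI. Calls were also lost in at least 1 alternative for *Ppp1r12b* and *Pdlim3* in cycling against Myh11-high cells, for *Synpo2* and *Hspb7* within cycling cells, and for *Cnn1*, *Cnn2*, *Mylk*, *Abra* and *Cryab* in ECs against Myh11-high cells. The cause of these moves was not tested.

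No gene with a call changed direction in any of the comparisons and alternatives with a test. Of the genes without a call, 5 changed direction in at least 1 alternative in ECs against Myh11-low cells, 6 in cycling against Myh11-low cells, 7 and 1 in cycling against other Myh11-low and Myh11-high cells, and 7 in the difference between cycling and other cells. In ECs against Myh11-low cells the log2 fold change went to 0.12 and 0.011 for *Smtn* with library totals and without the low-count filter, and to 0.10 for *Synpo2* with library totals. It went to -1.97 and -1.88 for *Mylk4* and to -0.16 and -0.68 for *Ppp1r14a* without the 5% of cells with the most UMIs and with ECs of at most 1 *Myh11* UMI. Without Myh11-low cells with *Pdgfra* and *Lum* it was -0.29 for *Ppp1r14a* and -0.71 for *Abra*, and -8.18 for *Abra* with ECs of at most 1 *Myh11* UMI, where no UMI was left. With 1 library left out there is no test. For *Sorbs2* in ECs against Myh11-low cells the log2 fold change was 2.80 without replicate 1 and 4.99 without replicate 2, and for *Pdlim3* it was 4.42 and 4.22. *Mylk4* and *Abra* rest on few UMIs in Myh11-low cells of replicate 1, and *Mylk4*, *Abra*, *Acta1*, *Ldb3* and *Synpo2* on fewer than 20 in ECs of each library.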
